A study of Rattus norvegicus with 5 samples.

Results

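Transcripts of 30 genes that p53 is known to switch on were followed in tumours grown from C6-L, a rat glioma cell line, in mice. The genes were chosen by name, as well known p53 targets, but with earlier results of these data known. Of the 30, 26 had a probe with a gene symbol on the array, among 15442 symbols in all, and 24 were bright enough to test. No probe of that kind was matched for Tnfrsf10b, Eda2r, Ddb2 or Sesn1, whose levels were not analysed here. Pmaip1, which encodes the BH3-only protein Noxa, was not well above background on any of the 5 arrays. Perp, which encodes a tetraspan membrane protein of the cell death branch, was well above background in nodules 2 and 3 only, and neither gene was tested.

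The hosts were BALB/c nu/nu nude mice, an athymic strain that lacks mature T cells but keeps other immune cells, and their labelled age was 6 weeks. The 3 metastatic lung nodules and the irradiated primary tumour were labelled as collected 6 weeks after γ-irradiation. The non-irradiated primary tumour was labelled as collected 6 weeks after the cells were xenografted. RNA of each tumour was labelled with Cy3 and hybridised to 1 single-colour Agilent rat array, so the nodules were the only group with replicates and each primary was 1 tumour on 1 array. Nothing in the labels ties a nodule to a mouse, so the p-values reflect the spread among these 3 nodules, which may be technical. All groups share the cell line and the host strain, and no untreated C6-L culture is among the arrays.

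Of 58717 gene spots per array, 69.8% to 73.5% exceeded background and none was saturated. Pearson correlations of log2 signal over the 18913 features bright enough to test were 0.982 to 0.992 for nodule pairs, 0.960 to 0.968 for nodules with the irradiated primary and 0.950 to 0.960 for nodules with the non-irradiated one. All arrays lay on 1 slide, nodules in the first row and primaries in the second, so the row and the tumour type cannot be told apart. Of the glial markers, Vim, Nes, S100b and Sox2 gave signal on the arrays, whereas Gfap and Olig2 were not well above background on any of them. The probes were designed for rat transcripts, and how much host mouse RNA contributed to their signal was not tested.

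The protein p53 is a transcription factor that is held at a low level by Mdm2, a ubiquitin ligase that is itself a p53 target. DNA breaks, such as those made by ionising radiation, stabilise p53, which then raises genes that halt the cell cycle (Cdkn1a, the Cdk inhibitor p21), trigger apoptosis (Bax, Bbc3, Fas), repair DNA (Xpc, Polk, Rrm2b) and adjust metabolism (Sesn2, Tigar).

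p53 binds a response element made of a pair of 10-base decamers that may stand side by side or be parted by a spacer. Windows from 250 bases before to 50 bases after the start of the gene, from RefSeq (rat assembly GRCr8), were searched for this element, using the p53 consensus decamer, spacers of up to 13 bases and up to 2 mismatches in the pair outside the invariant core letters. The consensus is its own reverse complement, so each search covers both strands. Of the 30 genes, 23 had such a window, and 6 of these (26.1%) held a match, against 3.53% of all 33469 windows. A decamer without any mismatch stood in 7 of the 23 windows (30.4%), against 7.98% of all windows. The matches lay in the windows of Aen, Ccng1, Cdkn1a, Ckap2, Gadd45a and Sesn1. The windows of the 4 matched genes that passed a test in the tumours are printed to set the matched letters beside the measured transcripts. Each runs 5′ to 3′ on the gene's strand over the 250 bases before the start, and capitals mark the matched element. Cdkn1a lies on the plus strand (chr20:7150682-7150931, 1 mismatch), Ccng1 on the minus strand (chr10:25684877-25685126, 1 mismatch), Aen on the plus strand (chr1:142224283-142224532, 2 mismatches) and Ckap2 on the plus strand (chr16:76541864-76542113, 2 mismatches).
Cdkn1a: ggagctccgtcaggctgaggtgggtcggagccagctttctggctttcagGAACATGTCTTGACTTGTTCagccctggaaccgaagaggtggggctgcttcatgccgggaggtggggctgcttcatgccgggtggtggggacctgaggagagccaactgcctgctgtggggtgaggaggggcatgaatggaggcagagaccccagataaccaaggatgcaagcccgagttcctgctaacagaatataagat
Ccng1: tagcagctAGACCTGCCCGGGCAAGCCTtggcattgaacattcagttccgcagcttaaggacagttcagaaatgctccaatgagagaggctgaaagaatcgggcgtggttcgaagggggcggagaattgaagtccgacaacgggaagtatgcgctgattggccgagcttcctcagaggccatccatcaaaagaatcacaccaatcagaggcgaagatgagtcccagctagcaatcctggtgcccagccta
Aen: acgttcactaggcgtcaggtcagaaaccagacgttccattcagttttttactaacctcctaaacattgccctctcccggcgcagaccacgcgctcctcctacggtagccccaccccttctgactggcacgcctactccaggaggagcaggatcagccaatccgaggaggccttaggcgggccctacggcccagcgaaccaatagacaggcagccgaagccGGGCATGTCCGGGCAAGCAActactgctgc
Ckap2: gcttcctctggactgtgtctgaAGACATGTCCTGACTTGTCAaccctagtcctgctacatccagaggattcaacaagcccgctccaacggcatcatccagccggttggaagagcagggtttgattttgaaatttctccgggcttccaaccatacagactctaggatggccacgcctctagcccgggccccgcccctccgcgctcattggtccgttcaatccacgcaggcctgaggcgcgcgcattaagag
Counted from the start of the gene, the element of Aen ran from -30 to -11, that of Cdkn1a from -201 to -182, that of Ckap2 from -228 to -209 and that of Ccng1 from -242 to -223. A match is a description of letters in the window, and elements farther away were outside the search.

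Many p53 targets stood lowest in the non-irradiated primary, and several stood highest in the irradiated primary, with the nodules between them. The non-irradiated primary had the lowest of the 5 levels for 15 of the 24 measured genes, against 32.5% of all 18913 features tested. The irradiated primary had the highest level for 16 of the 24, against 20.8% of all features. Both held, by the brightest probe of each gene, for 10 genes, namely Cdkn1a, Mdm2, Ccng1, Ccng2, Btg2, Zmat3, Bax, Aen, Phlda3 and Gdf15, against 6.96% of all features. The reverse placing, with the non-irradiated primary highest, was seen for Gadd45a and Tigar only, against 28.6% of all features. Levels are log2 signals relative to the 75th percentile of the same array, so a level of 0 equals that percentile and a difference of 1 is 2-fold.

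**Figure D1:**
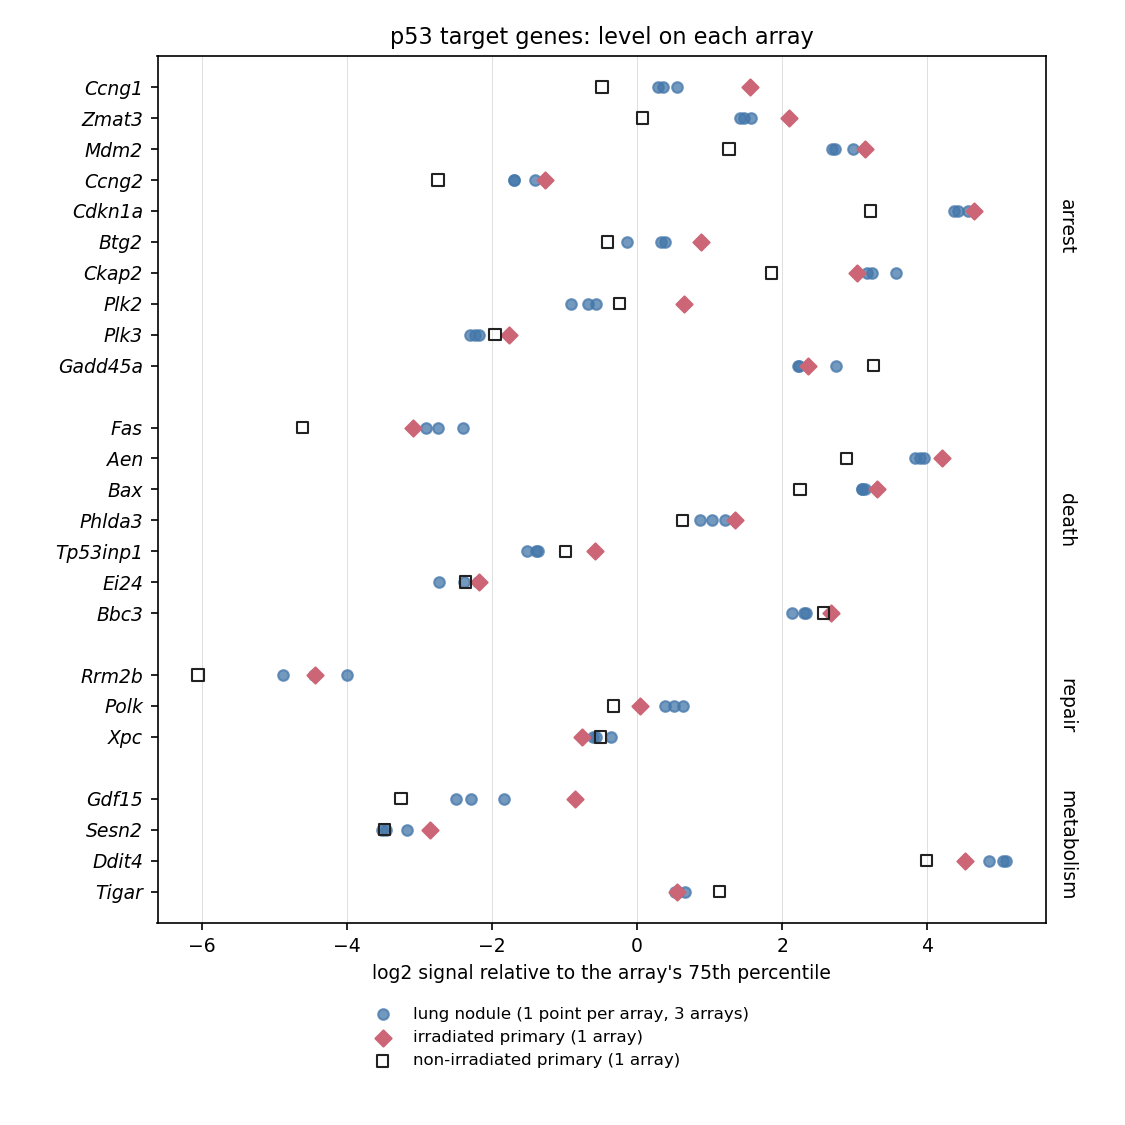
Level of each of the 24 measured p53 target genes on each array (x axis, log2 signal relative to the array's 75th percentile), grouped by branch, with circles for the 3 nodules, diamonds for the irradiated primary and open squares for the non-irradiated primary. The square lies left of every other symbol for 15 genes, and the diamond lies right of every other symbol for 16.

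Between the primaries, the irradiated tumour carried at least 2-fold more transcript of 12 of the 24 genes and at least 2-fold less of none. Of all features measured in this comparison, 9.30% were at least 2-fold higher and 7.13% at least 2-fold lower. The median log2 difference of the 24 genes was 0.98, and that of all features was 0.019. With the dimmer probe of each gene that has a pair, 8 of the 24 were at least 2-fold higher, 3 of them in the arrest branch, since Cdkn1a (0.12), Zmat3 (0.67), Ckap2 (0.85) and Ccng2 (0.99) then lay under 2-fold. The share of all features was not counted with that choice of probe. With 1 tumour of each kind the difference has no replicate check and carries no p-value. It is set beside the range of the same gene over the 3 nodules, which had a median of 0.28 on the log2 scale for these genes and 0.31 for all features.

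In the nodules, 11 of the 24 genes rose against the non-irradiated primary and Tigar fell (limma, adjusted p under 0.05), where 9.73% of all features rose, 8.86% fell and 18.6% changed either way. The median log2 difference was 0.85 for the 24 genes and 0.038 for all features. The genes that rose were Cdkn1a, Mdm2, Ccng1, Ccng2, Ckap2, Zmat3, Bax, Fas, Aen, Polk and Ddit4. Without nodule 2 no gene of the list passed (limma, smallest adjusted p = 0.0642), although 13 were higher and 2 lower at an unadjusted p under 0.05. Of all 18913 features, 4987 were then under that unadjusted threshold, either way. Without nodule 3, Cdkn1a, Mdm2, Ckap2 and Ddit4 rose, where 0.825% of all features rose. Without nodule 1, 13 genes rose and 2 fell, where 17.6% of all features rose and 16.3% fell.

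Against the irradiated primary, the nodules showed few differences: Ccng1 and Plk2 fell and none of the 24 rose (limma, adjusted p under 0.05), where 2.81% of all features fell, 0.909% rose and 3.72% changed either way. At an unadjusted p under 0.05, 9 of the 24 were lower and 2 were higher, where 4153 of all 18913 features passed either way. The median log2 difference was -0.31 for the 24 genes and 0.034 for all features. The irradiated primary lay above all 3 nodules for 16 genes, against 31.8% of features, and below all 3 for 5, against 36.2%. Both calls were lost without nodule 2 (limma, smallest adjusted p = 0.157) and without nodule 3. Without nodule 1, 6 genes fell and 1 rose, where 9.76% of all features fell and 7.09% rose. The calls of Ccng1 and Plk2 were lost as well with arrays scaled to their median or with no intensity trend. This comparison and that with the non-irradiated primary use the same 3 nodules, so their values are given side by side and are not independent.

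**Figure D2:**
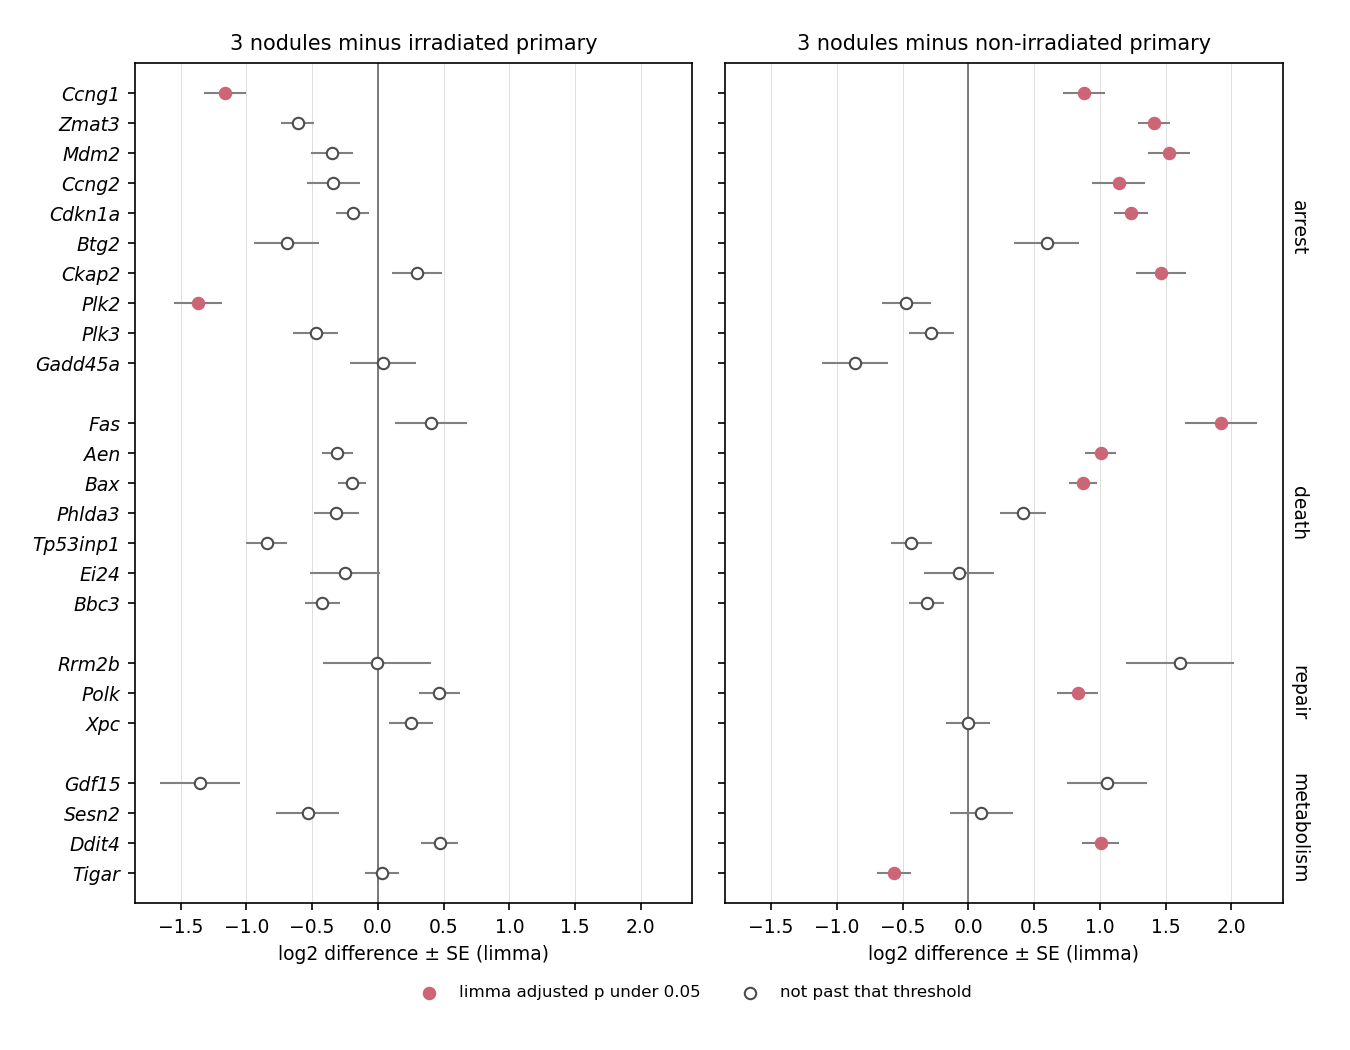
Log2 difference of the mean of 3 nodules from the irradiated primary (left) and from the non-irradiated primary (right) for each measured p53 target gene, with bars of 1 standard error from limma and filled circles for adjusted p under 0.05. Filled circles mark Ccng1 and Plk2 on the left, and 11 genes above 0 and Tigar below 0 on the right.

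The arrest branch held 10 genes, all measured. Branches are listings by name, and this one also holds the ubiquitin ligase Mdm2, the spindle protein Ckap2 and the RNA-binding protein Zmat3. A count in it is therefore no measure of arrest. Against the non-irradiated primary 6 of them rose and none fell, with 1 gene, Gadd45a, lower at an unadjusted p under 0.05, and the branch's median log2 difference was 1.01. Of all 18913 features, 9.73% rose and 8.86% fell, and 6974 had an unadjusted p under 0.05, either way. Between the primaries 7 were at least 2-fold higher in the irradiated tumour, against 9.30% of all features, with a median of 1.36. Cdkn1a, the p21 inhibitor of cyclin-dependent kinases, stood at 4.56, 4.43 and 4.38 in nodules 1, 2 and 3, at 4.65 in the irradiated primary and at 3.22 in the non-irradiated primary. Every tumour taken after irradiation therefore lay above the non-irradiated one, and the irradiated primary lay just above the nodules. The nodules exceeded the non-irradiated primary by 1.24 (SE 0.13, limma adjusted p = 0.0131, 2.36-fold) and differed from the irradiated primary by -0.19 (SE 0.13, adjusted p = 0.45). Its difference between the primaries was 1.43, or 2.69-fold, by this probe and 0.12 by the dimmer one.

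Mdm2, the ubiquitin ligase that returns p53 to a low level, had the same order. Its levels were 2.72, 2.69 and 2.97 in the nodules, 3.14 in the irradiated primary and 1.27 in the non-irradiated primary. The nodules were higher than the non-irradiated primary by 1.53 (SE 0.16, limma adjusted p = 0.0131, 2.88-fold), and the difference from the irradiated primary was -0.35 (SE 0.16, adjusted p = 0.289). Between the primaries Mdm2 differed 3.66-fold. Zmat3, an RNA-binding zinc finger protein, had levels of 1.42, 1.57 and 1.48 in the nodules, 2.10 in the irradiated primary and 0.08 in the non-irradiated primary. By this brighter probe the 5 tumours fell into 3 tiers that did not overlap, with each primary being 1 array. By the same probe Zmat3 rose by 1.41 against the non-irradiated primary (SE 0.13, limma adjusted p = 0.0115, 2.66-fold), stood at -0.61 against the irradiated one (SE 0.13, adjusted p = 0.0801) and differed 4.06-fold between the primaries. Its dimmer probe put the nodules only 0.029 above the non-irradiated primary and the irradiated primary 0.67 above it.

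Ccng1, the cyclin G1 that recruits a phosphatase to Mdm2, stood between the primaries in the nodules. Its levels were 0.28, 0.36 and 0.55 in the nodules, 1.56 in the irradiated primary and -0.48 in the non-irradiated primary. The groups did not overlap, and the nodules lay 0.88 above the non-irradiated one (SE 0.16, limma adjusted p = 0.0286, 1.84-fold) and below the irradiated one with a log2 difference of -1.16 (SE 0.16, adjusted p = 0.0381, 2.24-fold). With arrays scaled to their median or with no intensity trend, neither difference passed. The primaries differed 4.11-fold. Ccng2, a related cyclin linked to cell cycle exit, was at -1.70, -1.70 and -1.40 in the nodules, -1.26 in the irradiated primary and -2.74 in the non-irradiated primary. It rose by 1.14 against the non-irradiated primary (SE 0.20, limma adjusted p = 0.0276, 2.21-fold), and its difference from the irradiated primary, -0.34 (SE 0.20, adjusted p = 0.402), did not pass.

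Ckap2, a spindle-associated protein, did not follow that order. It stood at 3.24, 3.17 and 3.57 in the nodules, at 3.03 in the irradiated primary and at 1.86 in the non-irradiated primary, so the nodules lay highest. It rose by 1.47 against the non-irradiated primary (SE 0.19, limma adjusted p = 0.0164, 2.77-fold), and its difference from the irradiated primary was 0.30 (SE 0.19, adjusted p = 0.436). Btg2, an antiproliferative cofactor of mRNA decay, was at 0.39, 0.33 and -0.14 in the nodules, 0.88 in the irradiated primary and -0.41 in the non-irradiated primary. The primaries differed 2.45-fold, and neither nodule comparison passed (0.60, SE 0.25, limma adjusted p = 0.157, against the non-irradiated primary; -0.69, SE 0.25, adjusted p = 0.205, against the irradiated one).

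The polo-like kinase Plk2 separated the irradiated primary from all the other tumours. Its levels were -0.91, -0.68 and -0.56 in the nodules, 0.65 in the irradiated primary and -0.24 in the non-irradiated primary. The nodules lay below both primaries, with a difference of -1.37 from the irradiated one (SE 0.18, limma adjusted p = 0.0381, 2.58-fold) and of -0.47 from the non-irradiated one (SE 0.18, adjusted p = 0.142). Its relative Plk3 had differences of -0.47 (SE 0.17, adjusted p = 0.208) and -0.28 (SE 0.17, adjusted p = 0.297) in the same order. Gadd45a, a stress sensor of the arrest branch whose window held an element with an 11-base spacer, was at 2.75, 2.22 and 2.23 in the nodules, 2.36 in the irradiated primary and 3.26 in the non-irradiated primary. It was the only arrest gene with its highest level in the non-irradiated tumour, and its nodule difference of -0.86 from that tumour (SE 0.25, limma adjusted p = 0.0771) did not pass.

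**Figure D3:**
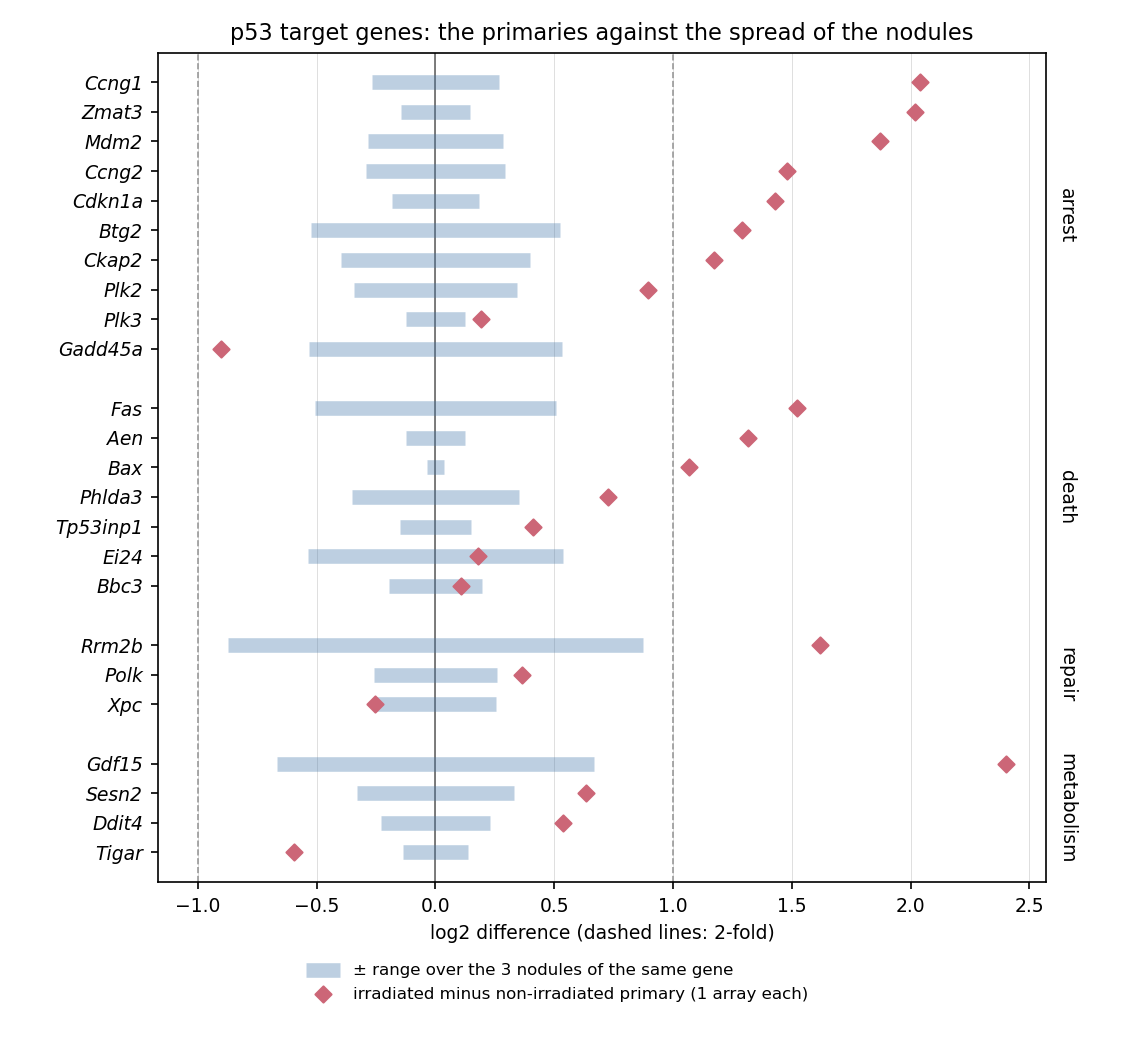
Log2 difference between the irradiated and the non-irradiated primary for each measured p53 target gene (diamonds), set on a bar spanning plus and minus the gene's range over the 3 nodules, with dashed lines at 2-fold. The diamonds of 12 genes lie beyond 2-fold to the right and none to the left, from Bax at 1.07 to Gdf15 at 2.40.

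Of the 11 death genes listed, 9 had a probe and 7 were measured. Against the non-irradiated primary 3 rose (Bax, Fas and Aen) and none fell, with 1 lower at an unadjusted p under 0.05, and the median of the branch was 0.41. Of all 18913 features, 9.73% rose and 8.86% fell, and 6974 had an unadjusted p under 0.05, either way. Between the primaries, 3 were at least 2-fold higher in the irradiated tumour, against 9.30% of all features, with a median of 0.73. Bax, the pore-forming protein of the mitochondrial outer membrane, had levels of 3.10, 3.10 and 3.14 in the nodules, 3.31 in the irradiated primary and 2.24 in the non-irradiated primary. The nodules spanned 0.037 and lay 0.87 above the non-irradiated primary (SE 0.11, limma adjusted p = 0.0153, 1.83-fold). Their difference from the irradiated primary was -0.20 (SE 0.11, adjusted p = 0.355), and the primaries differed 2.1-fold.

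Fas, the death receptor, was at -2.41, -2.91 and -2.74 in the nodules, -3.09 in the irradiated primary and -4.61 in the non-irradiated primary. All 3 nodules were above both primaries. The difference from the non-irradiated primary, 1.92 (SE 0.27, limma adjusted p = 0.0188, 3.79-fold), was the largest of the 12 called genes, and that from the irradiated primary was 0.40 (SE 0.27, adjusted p = 0.459). Between the primaries Fas differed 2.87-fold. Aen, a nuclease that acts in apoptosis, was at 3.91, 3.95 and 3.83 in the nodules, 4.20 in the irradiated primary and 2.89 in the non-irradiated primary. It rose by 1.01 against the non-irradiated primary (SE 0.12, limma adjusted p = 0.0145, 2.01-fold), was at -0.31 against the irradiated one (SE 0.12, adjusted p = 0.22) and differed 2.49-fold between the primaries.

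The remaining death genes did not pass either comparison. Phlda3, a pleckstrin-homology protein that restrains Akt, was at 1.03, 0.87 and 1.22 in the nodules, 1.35 in the irradiated primary and 0.63 in the non-irradiated primary, in the order of Cdkn1a but with smaller steps. Its nodule differences were 0.41 (SE 0.17, limma adjusted p = 0.164) from the non-irradiated primary and -0.31 (SE 0.17, adjusted p = 0.367) from the irradiated one. Bbc3, the BH3-only protein Puma, was at 2.14, 2.33 and 2.30 in the nodules, 2.68 in the irradiated primary and 2.57 in the non-irradiated primary. Its primaries differed by 0.11, less than the 0.19 that separated the nodules. Tp53inp1, a nuclear cofactor of p53 in stress, lay lower in the nodules than in both primaries, with a difference of -0.84 from the irradiated one (SE 0.16, limma adjusted p = 0.0642) and of -0.43 from the non-irradiated one (SE 0.16, adjusted p = 0.118). Ei24, a membrane protein of the endoplasmic reticulum, differed by 0.18 between the primaries, within the 0.54 that separated its nodules.

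Of the 4 repair genes, Ddb2 had no probe and 3 were measured. Polk, a translesion DNA polymerase, was at 0.38, 0.64 and 0.51 in the nodules, 0.04 in the irradiated primary and -0.32 in the non-irradiated primary. It was the 1 repair gene that rose, by 0.83 against the non-irradiated primary (SE 0.16, limma adjusted p = 0.0311, 1.78-fold), and the nodules lay above both primaries (0.47 against the irradiated one, SE 0.16, adjusted p = 0.185). The rise of Polk did not pass with arrays scaled to their median or with no intensity trend. Rrm2b, the p53-inducible subunit of ribonucleotide reductase, was at -4.00, -4.45 and -4.87 in the nodules and -4.44 in the irradiated primary, and it was not well above background in the non-irradiated primary. For a bound, that array was given its lowest signal well above background, or the probe's own where higher. In the main processing the nodules were then at least 3.05-fold and the irradiated primary at least 3.07-fold above the non-irradiated primary. The measured difference of 1.61 (SE 0.41, limma adjusted p = 0.0577) did not pass, although it did with arrays scaled to their median and with quantile normalization. Over the other settings, those leaving out a nodule included, this log2 difference ranged from 0.352 to 1.83, so the bound depends on the processing. Rrm2b had the widest range over the nodules of the 24 genes, 0.87. Xpc, the damage sensor of nucleotide excision repair, differed by 0.25 (SE 0.17, adjusted p = 0.449) from the irradiated primary and by less than 0.01 from the non-irradiated one.

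Of the 5 genes of metabolism and growth signalling, 4 were measured, and the members moved in different directions. Ddit4, an inhibitor of mTORC1 that also answers to hypoxia and the integrated stress response, stood at 5.09, 5.05 and 4.86 in the nodules, 4.53 in the irradiated primary and 3.99 in the non-irradiated primary. It rose by 1.01 against the non-irradiated primary (SE 0.14, limma adjusted p = 0.0186, 2.01-fold), and the difference from the irradiated primary was 0.47 (SE 0.14, adjusted p = 0.156). Tigar, a phosphatase that restrains glycolysis, was at 0.66, 0.52 and 0.56 in the nodules, 0.55 in the irradiated primary and 1.14 in the non-irradiated primary. It was the only gene of the 24 that fell against the non-irradiated primary, with a difference of -0.56 (SE 0.13, limma adjusted p = 0.0465, 1.48-fold), and the irradiated primary lay within the range of the nodules. That call was lost under 6 of the other settings, among them the deposited value table and scaling to the array median.

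Gdf15, a secreted cytokine of the TGF-β family, had the largest difference between the primaries of the 24 genes, 2.40 or 5.28-fold. Its levels were -1.83, -2.49 and -2.29 in the nodules, -0.86 in the irradiated primary and -3.26 in the non-irradiated primary. The nodules lay between the primaries without overlap, but neither comparison passed (1.05, SE 0.30, limma adjusted p = 0.0761, against the non-irradiated primary; -1.35, SE 0.30, adjusted p = 0.0935, against the irradiated one). Sesn2, a sestrin that restrains mTORC1, was at -3.18, -3.51 and -3.46 in the nodules, -2.85 in the irradiated primary and -3.48 in the non-irradiated primary. The irradiated primary was highest, and the non-irradiated one lay within the nodules' range of 0.33. Its nodule differences were -0.53 (SE 0.24, limma adjusted p = 0.282) from the irradiated and 0.10 (SE 0.24, adjusted p = 0.797) from the non-irradiated primary.

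The p53 targets varied between nodules about as much as other features, with the median ranges given above (0.28 and 0.31). None of the 24 differed 2-fold between any pair of nodules, where 5.21%, 7.04% and 2.26% of all features did for nodules 1 and 2, 1 and 3, and 2 and 3. Of the 24, 19 had a probe printed in repeated spots, and the standard deviation of those spots had a median of 0.046 on the log2 scale.

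Of these genes, 10 had a second tested probe, and the sign against the non-irradiated primary was the same for both probes of each. The sizes differed most for Cdkn1a, whose dimmer probe gave 0.18 against 1.24 for the brighter one, and for Zmat3, with 0.029 against 1.41. Both probes of Cdkn1a carry the same transcript accession, as do both of Zmat3, and which of them tracks the transcript better was not tested. With the dimmer probe in place of the brighter, a choice made after seeing the data, the rises of Cdkn1a (limma adjusted p = 0.394), Zmat3 (adjusted p = 0.945) and Ccng2 (adjusted p = 0.159) and the fall of Tigar (adjusted p = 0.696) did not pass. That left 8 rises, 3 of them in the arrest branch, where 9.58% of all features rose. The dimmer probes of Fas (2.37), Ddit4 (1.23), Mdm2 (1.23), Polk (1.12), Ckap2 (1.08) and Aen (0.71) kept their calls.

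**Figure D4:**
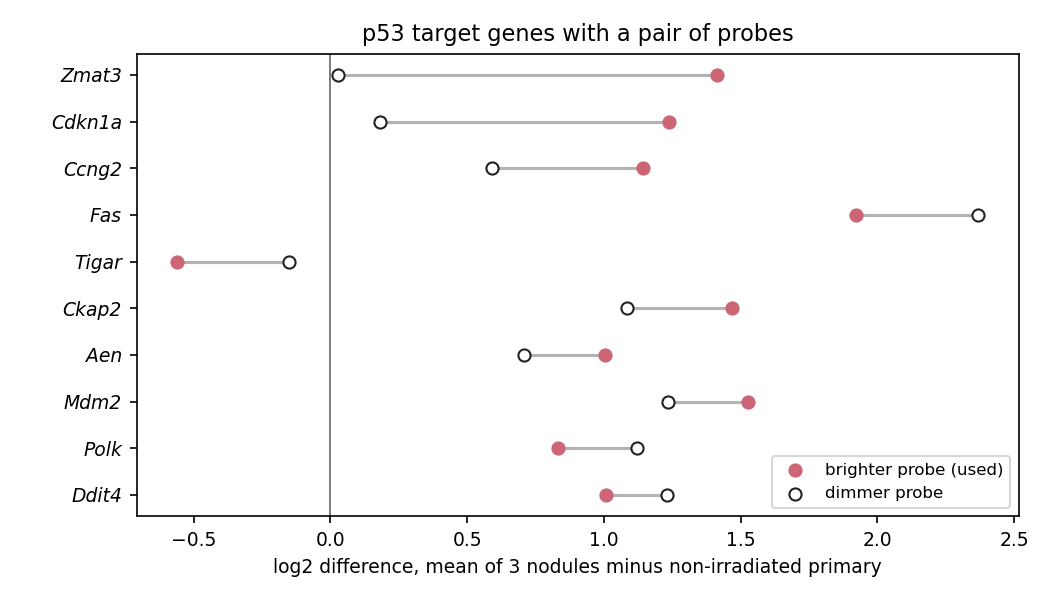
Log2 difference of the mean of 3 nodules from the non-irradiated primary for the 10 p53 target genes with a pair of tested probes, the brighter probe filled and the dimmer open. The pair lies farthest apart for Zmat3 (1.41 and 0.029) and Cdkn1a (1.24 and 0.18), and nearest for Ddit4 (1.01 and 1.23).

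Of 22 listed regulators and relatives of p53, 15 were measured. Against the irradiated primary none was called (limma, smallest adjusted p = 0.0747), with 2 higher and 2 lower at an unadjusted p under 0.05. Of all 18913 features, 4153 were under that unadjusted threshold, either way. Against the non-irradiated primary Tp73 and Ppm1d rose and Hipk2 fell, with a median log2 difference of -0.008 over the 15, where 9.73% of all features rose and 8.86% fell, so these counts lie near the background. Hipk2 did not pass with arrays scaled to their median or with no intensity trend, and Ppm1d did not pass with no trend.

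Tp73, which encodes the p53 relative p73, was at -2.68, -2.22 and -2.47 in the nodules and -1.31 in the irradiated primary, and it was not well above background in the non-irradiated primary. In the main processing the nodules were at least 11.4-fold (limma adjusted p = 0.00909) and the irradiated primary at least 25.2-fold above the non-irradiated one. Over the other settings the log2 difference of the nodules from the non-irradiated primary ranged from 1.68 to 3.62, so the bound depends on the processing. Ppm1d, the phosphatase Wip1 that dampens p53 signalling, rose by 0.85 (SE 0.17, limma adjusted p = 0.0338), and Hipk2, a kinase that phosphorylates p53, fell with a difference of -1.06 (SE 0.22, adjusted p = 0.0382). For Hipk2 both primaries stood together, at 2.18 and 2.13, above the nodules at 0.84 to 1.34.

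Of 32 further p53 targets outside the main list, 25 were measured. Against the non-irradiated primary 4 rose and 2 fell, with a median of 0.16, against 0.85 for the main list and 0.038 for all features. Of all features 9.73% rose and 8.86% fell, so these counts too lie near the background. The largest changes were in Fdxr, a mitochondrial electron-transfer reductase (2.08, SE 0.32, limma adjusted p = 0.0222), Notch1, a cell-surface receptor (2.04, SE 0.16, adjusted p = 0.00996), Abcb1b, a drug efflux pump (1.57, SE 0.15, adjusted p = 0.0126), and Tp53i11, which fell (-1.29, SE 0.15, adjusted p = 0.0146). With its dimmer probe Notch1 was at 0.889 and did not pass (limma adjusted p = 0.119).

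p53 also lowers cell cycle genes, through p21 and the DREAM repressor complex. Of 24 such genes listed, 20 were measured, and 9 rose and none fell in the nodules against the non-irradiated primary, with a median of 0.71 and with 1 lower at an unadjusted p under 0.05, where 9.73% of all features rose. With arrays scaled to their median, or with no intensity trend, 6 rose and Cenpf was not among them. Plk1, a mitotic kinase (1.44, limma adjusted p = 0.0217), Cenpf, a kinetochore protein (1.27, adjusted p = 0.0326), and Mki67, the proliferation antigen Ki-67 (1.27, adjusted p = 0.0147), were among those that rose. The non-irradiated primary was thus the lowest array for 17 of these 20 genes as well as for 15 of the 24 p53-activated ones, against 32.5% of all features. Without nodule 2 no gene of this list passed and without nodule 3 only 1 did. Against the irradiated primary none was called (limma, smallest adjusted p = 0.0648), with 5 higher at an unadjusted p under 0.05. Of all 18913 features, 4153 were under that unadjusted threshold, either way.

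Markers of other cell types differed between the tumours too, and in bulk tissue fewer cells of a type cannot be told apart from less RNA per cell. The summed linear signal of the macrophage markers, with the 75th percentile of an array as 1, was 50.5 to 60.0 in the nodules, 60.8 in the irradiated primary and 29.1 in the non-irradiated primary. Bright genes such as C1qa and C1qb carry that sum, and of 11 macrophage markers tested 5 rose and 2 fell, Cd163 (-2.55, limma adjusted p = 0.0399) and Cd68 (-1.12, adjusted p = 0.0338), in the nodules against the non-irradiated primary, which was the lowest array for 7 and the highest for 4. Fibroblast markers summed to 75.6 to 103, 71.4 and 42.5 and erythroid markers to 313 to 564, 106 and 39.3 in the same order, so these sums were lowest in the tumour where most p53 targets were lowest. Bright Col1a1 and Col1a2 carry much of the fibroblast sum. Of 6 fibroblast markers tested, 1 rose and 0 fell in the nodules against the non-irradiated primary, which was the lowest array for 3 and the highest for 1. Bright Hba-a1 and Hbb-b1 carry much of the erythroid sum. Of 6 erythroid markers tested, 4 rose and 0 fell in that comparison, and the non-irradiated primary was the lowest array for 5. Ahsp had a difference of -0.20 (limma adjusted p = 0.866). Of all features, 9.73% rose and 8.86% fell, and 32.5% were lowest in the non-irradiated primary. Skeletal muscle markers summed to 5.30 to 6.91 in the nodules, 161 in the irradiated and 37.3 in the non-irradiated primary, and glial markers to 74.1 to 95.9, 68.0 and 74.3. The bright gene Vim carries much of the glial sum. Of 14 glial markers tested, 0 rose and 2 fell in the nodules against the non-irradiated primary. Those were Sox10 (-4.90, limma adjusted p = 0.0365) and Nes (-2.43, adjusted p = 0.0364). That primary was the lowest array for 3 of the 14 and the highest for 6. Heart markers reached 58.4 in nodule 3 and lung epithelial markers 74.0 in nodule 1. The part of these cells in the values of the p53 targets was not tested.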

How the data were processed

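In all, 5 single-colour arrays were analysed. The deposited scanner files hold spot intensity values after the scanner software's own background correction (gProcessedSignal), with flags for spots above background, saturated or outlying. Per the submitters' processing notes the software was Agilent Feature Extraction 11.0. A deposited value table on a log2 scale, whose centring is not given in the sources used here, served as an alternative.

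Control and outlier spots were left out, spots of a probe were averaged, and log2 intensity was taken relative to each array's 75th percentile. Of 30367 probes, 60.4% carry a gene symbol. A probe was tested when it was well above background on every array of at least 1 group, with the brightest probe standing for its gene, which left 18913 features. Group means were fitted with limma 3.58.1 (R 4.3.3; lmFit, eBayes with an intensity trend), with Benjamini-Hochberg adjustment over all features and a threshold of 0.05. The spread comes from the nodules alone, with 2 residual degrees of freedom. eBayes drew each gene's spread toward the trend over all features, with 2.76 prior degrees of freedom. A standard error is therefore not the nodule spread of that gene alone. The fit was tested on simulated data in which every array had a spread taken from the nodules. That simulation could not test how much an unreplicated primary varies.

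Named were all listed genes, with full values for those called in a comparison or 2-fold apart between the primaries and for a set of core targets. From other lists, up to 4 called genes with the largest differences were named, and a few results under this rule are not reported here. Members and lists were chosen with earlier results of these data known, and no list has a test of its own. Alternatives changed the scaling, background correction, filter, probe choice, intensity trend, fold threshold and nodules included. The scanner files give medians of spot pixels, so normexp was run on those. Probe positions follow an older rat build than the promoter windows, and none are printed.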

Additional observations from a re-analysis of the deposited data

How the results depend on the processing

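Replication limits these results: the spread rests on 3 nodules, each primary is 1 array, and Rrm2b was below the background limit on 1 array. Without nodule 2 all 12 calls against the non-irradiated primary and both against the irradiated primary were lost (limma adjusted p 0.0642 to 0.163 and 0.157 to 0.171). No feature at all then passed, although 4987 and 2690 had an unadjusted p under 0.05. Without nodule 3, 8 and 2 calls were lost, and without nodule 1 none. Leaving out a nodule in turn gave 0 to 13 rises and 0 to 2 falls against the non-irradiated primary (median log2 difference 0.82 to 0.87), and 0 to 1 rises and 0 to 6 falls against the irradiated primary (median -0.39 to -0.26). Of all features, 0% to 17.6% then rose and 0% to 16.3% fell against the non-irradiated primary. Against the irradiated primary, 0% to 7.09% rose and 0% to 9.76% fell. Rises against the non-irradiated primary then numbered 0 to 6 in the arrest branch, 0 to 3 in the death branch, 0 to 15 among the DREAM genes and 0 to 9 among the further targets. The branch medians ranged from 0.93 to 1.06 for arrest and 0.32 to 0.50 for death, and from -0.45 to -0.37 and -0.37 to -0.23 against the irradiated primary. No paired analysis was possible because each primary has 1 array, so the groups share fewer than 2 replicate numbers.

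Scaling to the array median left 0 falls against the irradiated primary, as did dropping the intensity trend, and moved the median to -0.22 (arrest -0.32, death -0.22). The median nodule range became 0.35, and the median of the p53 regulators against the irradiated primary turned from -0.074 to 0.019. The fall of Tigar gave way to 0 falls with the array median, no trend, no filter, the mean or the dimmer of a gene's probes, and the deposited table. The median against the non-irradiated primary was 0.81 with the deposited table, 0.80 with no filter, 0.82 with quantile normalization, 0.72 with the mean of probes, 0.60 with normexp and 0.50 with the dimmer probe, the last a setting chosen after seeing the data. For the arrest branch it was 0.72 with the mean of probes, 0.85 with normexp and 0.39 with the dimmer probe, which left 3 rises. Between the primaries the median was 0.88 with the deposited table, 0.81 with no filter, 0.90 with probes above background on all 5 arrays, 0.84 with the mean of probes, 0.75 with normexp and 0.74 with the dimmer probe. At 1.5-fold, 2 genes were lower in the irradiated primary, Gadd45a (-0.90) and Tigar (-0.59). At that threshold Phlda3 (0.73), Plk2 (0.90) and Sesn2 (0.63) joined the genes higher in it. The share of all features at 1.5-fold was not counted. The cause of these shifts was not tested.

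Some differences that passed no test changed sign. Against the irradiated primary, Cdkn1a turned to 0.062 with the dimmer probe, Rrm2b to 0.13 with quantile normalization and 0.086 with the array median, and Tigar to -0.059 with the dimmer probe and -0.014 with the mean of probes. Xpc against the non-irradiated primary turned to 0.015 with normexp and 0.011 with the array median. Over the settings that leave out a nodule, the differences spanned -0.23 to 0.21 for Rrm2b, -0.13 to 0.13 for Gadd45a and -0.0069 to 0.062 for Tigar against the irradiated primary. Against the non-irradiated primary they spanned -0.19 to 0.077 for Ei24, -0.0039 to 0.16 for Sesn2 and -0.081 to 0.046 for Xpc.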
